A study of Mus musculus with 13 samples.

Results

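The comparison of quadriceps muscle in SKM-Tg mice with that in Wt mice used 7 of the 13 arrays of the series, 4 SKM-Tg and 3 Wt. Members were taken by their group label, and each gene was read from its brightest probe set with a single gene symbol, ranked by mean signal over all 13 arrays. All 13 animals were male C57Bl/6 mice aged 4 months on chow, with 1 array of quadriceps RNA each. The series tests gain of function and ablation of DOR, an earlier name of Trp53inp2, in muscle. From the names, SKM-Tg was read as the gain of function and Wt as its unmanipulated control. The other arrays, 3 labelled C and 3 labelled SKM-KO, were read in the same way as the control and the ablation and are used here only to place the SKM-Tg values. The labels spell out no group name. Which promoter drives the transgene, how many founder lines there were and whether the Wt animals were littermates is not given in the labels. The question was how raised Trp53inp2 in muscle changes gene expression.

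Trp53inp2 encodes a protein that shuttles between nucleus and cytoplasm. In the nucleus it binds nuclear hormone receptors, the thyroid hormone receptor among them, as a coactivator. In the cytoplasm it binds LC3 and GABARAP proteins on forming autophagosomes, the vesicles that enclose cell material and deliver it to lysosomes for breakdown. In muscle this breakdown runs beside that of the ubiquitin ligases of atrophy, and the gene is abundant in this tissue.

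Signals are on the log2 scale, so a difference of 1 is a doubling of signal. Array medians of the 7 lay between 4.85 and 4.93. Markers of the muscle fibre had signals far above these medians: Ckm, muscle creatine kinase, lay between 12.35 and 12.60, and Acta1, skeletal actin, between 12.58 and 12.84. The control probe sets of Gapdh gave 3′ minus 5′ differences of 0.23 to 0.28 on all 7 arrays, a measure of RNA integrity that was close in both groups. Those of actin gave -0.31 to -0.21 in Wt and -0.25 to -0.15 in SKM-Tg, with SKM-Tg 4 above the Wt range. The 7 arrays did not sort by group. The first principal component held 66.8% of the variance and ran from Wt 3 at -24.3 to Wt 2 at 44.9, with all SKM-Tg arrays between them. Wt 2 was the highest or lowest of the 7 arrays in 67.7% of genes. Its correlation with Wt 3 over the genes tested, 0.918, was the lowest of any pair among the 7, while pairs within SKM-Tg ran from 0.9715 to 0.9907. The median SD of a gene was 0.25 within Wt and 0.17 within SKM-Tg, and the spread was larger in Wt for 7411 of 10411 genes.

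**Figure D1:**
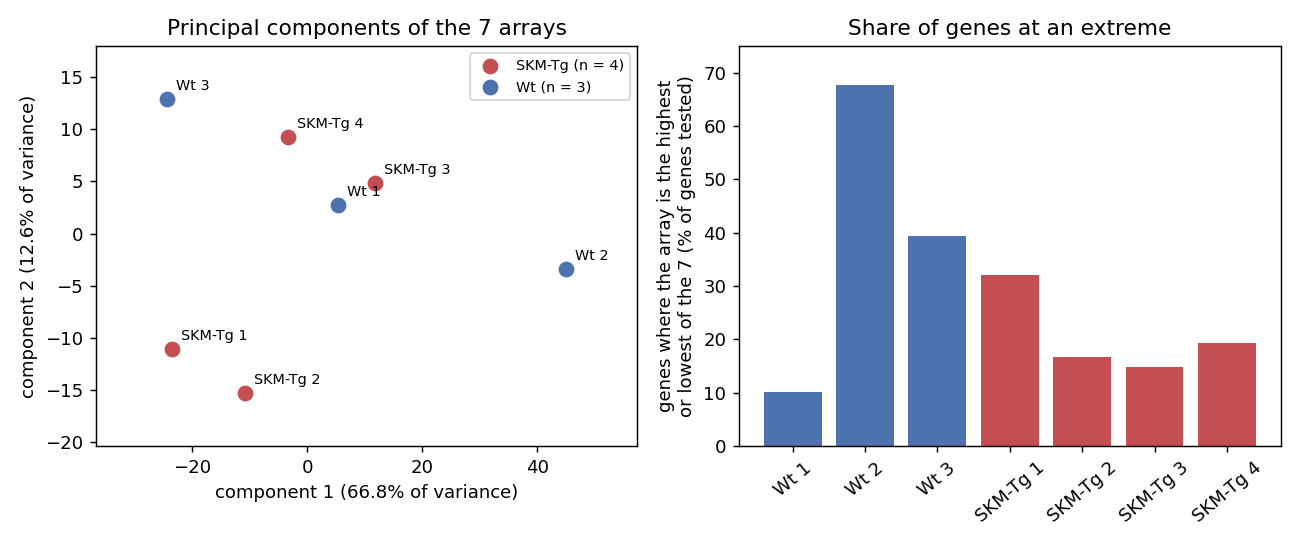
Left, the first and second principal components of the 7 arrays over the 10411 genes tested, with axes in component scores and each point an array; Wt 2 and Wt 3 lie at the ends of the first component and the SKM-Tg arrays between them. Right, bars from 0 give the percent of genes in which an array is the highest or lowest of the 7, which is 67.7% for Wt 2 and 10.1% for Wt 1.

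Trp53inp2 itself did not separate the groups. Its 1 probe set read 11.201, 11.464 and 11.001 in Wt and 11.112, 11.031, 11.276 and 11.241 in SKM-Tg. The SKM-Tg values all lay inside the range of the Wt values. The difference was -0.06 (SE 0.14, 95% interval -0.38 to 0.27), with a limma adjusted p of 0.954 and a two-sided exact permutation p of 0.743. Without Wt 2 it was 0.06. In the SKM-KO arrays this probe set read 8.58 to 8.99, so it does follow the gene's own transcript. The label is thus not checked by this signal: neither the position of the probes nor the transgene's sequence is given in the sources used here. Its paralogue Trp53inp1, a p53-induced protein that also binds LC3, read 7.33, 6.37 and 7.98 in Wt and 8.19, 8.48, 7.36 and 6.91 in SKM-Tg. These values overlapped over most of their range, and the difference was 0.51 (SE 0.46), with 0.31 in its other probe set. Directions below are those of the arrays labelled SKM-Tg against the arrays labelled Wt.

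Over the 10411 genes tested, 0 passed an adjusted p of 0.05 in limma (0%), and the smallest adjusted p was 0.938. At an unadjusted p of 0.05, 297 genes (2.85%) were counted, 73 (0.701%) with SKM-Tg higher and 224 (2.15%) with it lower. The lower genes made up 75.4% of these, but 55.5% after quantile and 56.2% after cyclic loess normalization. Over all genes the median difference was -0.05 and 62.2% lay below 0, against 53.7% and 50.9% under these normalizations. The direction of small differences thus rests in part on whether the array distributions are made alike. Median centring alone left 62.9% below 0, and 73% of the genes at an unadjusted p of 0.05 lower. All 4 SKM-Tg arrays lay outside the range of the 3 Wt arrays in 413 genes (3.97%), above it in 123 (1.18%) and below it in 290 (2.79%). An exact permutation test of 4 against 3 arrays cannot give a two-sided p below 0.0571. With labels set at random a share of 0.0571 of genes would be apart on average, and the 3.97% found lay below it. The 2.85% at an unadjusted p of 0.05 also lay below the share that this threshold passes without any difference. The median gene had an interval of 0.38 on either side of its difference, which is a 1.30-fold change. A difference of at least 1 was found in 16 genes, 10 higher and 6 lower, and in 4 of them the groups did not overlap. These counts moved with single arrays. Without Wt 3, 514 genes were higher and 1178 lower at an unadjusted p of 0.05, and the groups were apart in 761 above and 1674 below. Without SKM-Tg 3 the lower counts were 376 and 845, while without SKM-Tg 1, SKM-Tg 2 or Wt 1 the counts at an unadjusted p fell to 44 to 47 higher and 113 to 132 lower. Leaving out any array raised the number above, to between 176 and 761, as fewer arrays make it easier to be apart. Also without Wt 3, 2 genes passed the adjusted threshold in limma, Rasd2 at -1.82 and 1700001O22Rik at -1.67, both with an adjusted p of 0.0323.

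**Figure D2:**
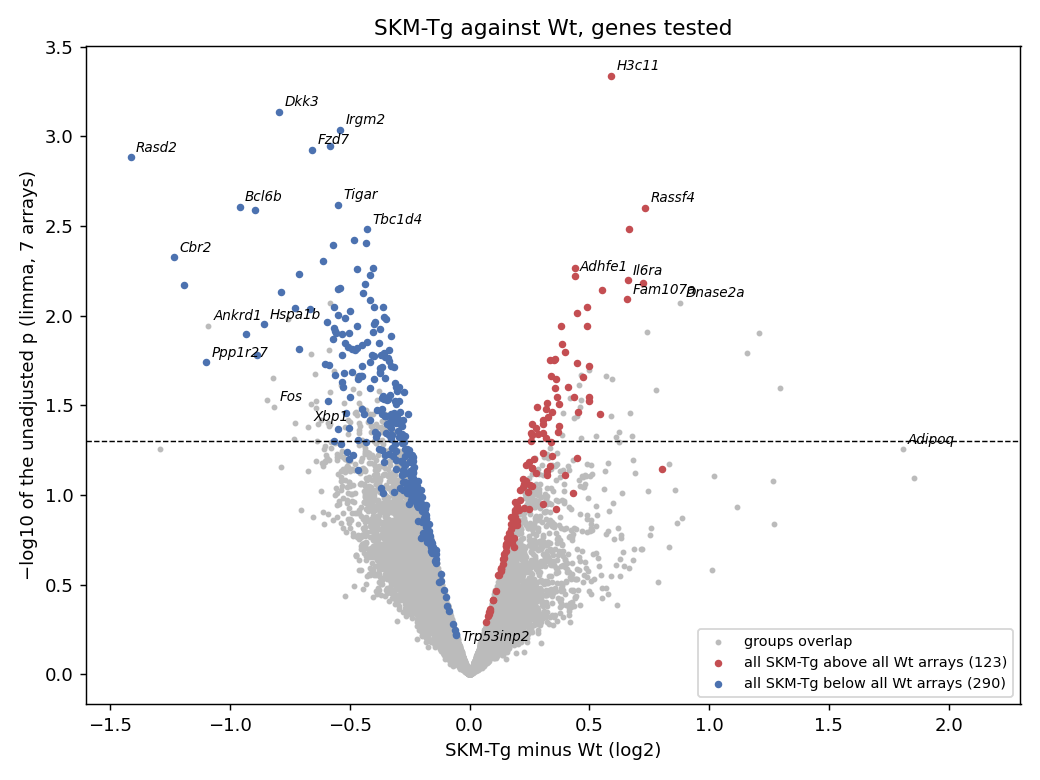
Each point is 1 of the 10411 genes tested, with the SKM-Tg minus Wt difference (log2) on the x axis and -log10 of the unadjusted limma p on the y axis; red and blue points are the 123 and 290 genes whose groups do not overlap, and the dashed line is an unadjusted p of 0.05. Points below 0 outnumber those above it past the line, 224 against 73, and Adipoq has a large difference with overlapping groups.

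The rule on names took the 15 smallest p-values and the 10 largest non-overlapping differences in each direction, 38 genes in all. The groups did not overlap in 36 of them, which follows from how they were taken. In 15 the 4 SKM-Tg arrays also lay outside all 9 other arrays of the series. Over all genes 105 (1.01%) did so, 30 (0.288%) above and 75 (0.72%) below, which is 25.4% of the 413 genes with groups apart. All 14 of the 38 with several measured probe sets had the same sign in each, and 0 of the 38 changed sign under any alternative tried. In the 36 with groups apart, leaving out or weighting arrays cannot turn the sign, so the steady sign under those alternatives also follows from the selection.

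On the higher side, the smallest p belonged to H3c11, a replication-dependent histone H3. It read 5.37, 5.43 and 5.42 in Wt and 5.91, 6.08, 5.97 and 6.04 in SKM-Tg. Each group was tight and the gap between them was wider than either range. The difference was 0.59 (SE 0.11, unadjusted p 0.00046, limma adjusted p 0.938), a 1.51-fold higher signal. C averaged 5.32 ± 0.08 (SD, n = 3), close to Wt. Another histone gene, H2bc21, was named after its values were seen and had all SKM-Tg arrays above all 9 others, at 0.45. Of the 9 replication-dependent histone genes tested, these were the 2 whose groups did not overlap, and 5 lay below 0. The 2 are 22.2% of the list, against 3.97% of all genes. Gene lists were chosen with earlier results of these data known, so this share and those below are descriptions without a test. The list median of -0.02 was turned by single arrays, to 0.18 without Wt 2, where the list medians of the groups were apart, and to -0.12 without Wt 3.

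Genes of metabolism on this side were Adhfe1 and Gnmt. Adhfe1, a mitochondrial oxidoreductase that turns over gamma-hydroxybutyrate, read 9.65, 9.57 and 9.88 in Wt and 10.19, 10.21, 10.09 and 10.08 in SKM-Tg. Every SKM-Tg array was above all 9 others, by a difference of 0.44 (SE 0.12). Gnmt, which methylates glycine with S-adenosylmethionine, read 6.91, 7.10 and 6.85 against 7.49, 7.43, 7.67 and 7.18. Here too all SKM-Tg arrays lay above the rest of the series, and the difference was 0.49 (SE 0.15). Dnph1, a nucleotide hydrolase, differed by 0.45 in the same manner.

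Signalling genes stood beside them. Il6ra, the binding chain of the interleukin-6 receptor, read 8.79, 8.64 and 8.59 in Wt and 9.45, 9.68, 9.30 and 8.91 in SKM-Tg. Its groups did not overlap, with SKM-Tg 4 nearest to Wt, and the difference was 0.66 (SE 0.18). Rassf4, a member of the Ras association domain family, read 7.15, 7.11 and 7.03 against 7.46, 7.86, 8.20 and 7.79. All 4 SKM-Tg values were above the whole series, at 0.73 (SE 0.17), a 1.66-fold higher signal. Gabrr2, a subunit of a GABA-gated chloride channel, differed by 0.72 at signals close to the array median.

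Transcription factors on the higher side were Msc, a basic helix-loop-helix repressor of the muscle lineage, at 0.44, Pou4f1, known from sensory neurons, at 0.55, and Hoxb5 at 0.50. Msc averaged 5.77 in C, level with 5.74 in SKM-Tg. Golm1, a Golgi membrane protein, showed the same order, with 6.85 in C, 6.82 in SKM-Tg and 6.32 in Wt. Fam107a, a stress-responsive actin-binding protein, differed by 0.66. Fbxo9, a substrate receptor of a ubiquitin ligase, read 9.57, 9.54, 9.53 and 9.59 in SKM-Tg but 9.16, 8.44 and 9.44 in Wt. The spread lay in Wt alone, and the difference was 0.54 (SE 0.22). Dnase2a, the acid nuclease of lysosomes, differed by 0.88 (SE 0.26), yet Wt 3 at 5.82 lay above SKM-Tg 3 at 5.77. The remaining genes on this side, D930003E18Rik, 1110032A03Rik, 2310065F04Rik and 1700003F12Rik, differed by 0.38 to 0.80.

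On the lower side, several genes read lower in SKM-Tg than on every other array of the series. Fzd7, a Wnt receptor known from muscle stem cells and growth, read 7.33, 7.13 and 7.26 in Wt and 6.34, 6.54, 6.70 and 6.75 in SKM-Tg. All SKM-Tg arrays were below all 9 others, and the difference was -0.66 (SE 0.14, unadjusted p 0.00119, limma adjusted p 0.938). Tigar, a p53-induced phosphatase that slows glycolysis, read 9.35, 9.30 and 9.31 against 8.71, 8.57, 8.83 and 8.98. SKM-Tg was below the whole series, by a difference of -0.55 (SE 0.13). Slc4a4, a sodium bicarbonate cotransporter, read 7.87, 7.58 and 7.74 against 7.34, 7.29, 7.21 and 7.14, and differed by -0.48 (SE 0.12). Trmt5, a tRNA methyltransferase, and Srpk2, a kinase of splicing factors, lay below the whole series too, at -0.61 and -0.40.

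Tbc1d4, known as AS160, is the Rab GTPase-activating protein through which insulin releases the glucose transporter GLUT4 to the surface. It read 8.57, 8.45 and 8.55 in Wt and 8.16, 8.10, 8.07 and 8.03 in SKM-Tg. The 4 SKM-Tg values lay close together and below every other array, and the difference was -0.43 (SE 0.11). C lay between, at 8.33 ± 0.05 (SD, n = 3). Insr, the insulin receptor, was named after its values were seen and also did not overlap, at -0.24 (SE 0.11). Of 24 tested genes of insulin signalling and glucose transport these were the 2 apart (8.33%, against 3.97% of all genes), and 17 lay below 0, with a median of -0.12 that was -0.03 without Wt 2 and -0.24 without Wt 3. Slc2a4, which encodes GLUT4, differed by -0.06.

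**Figure D3:**
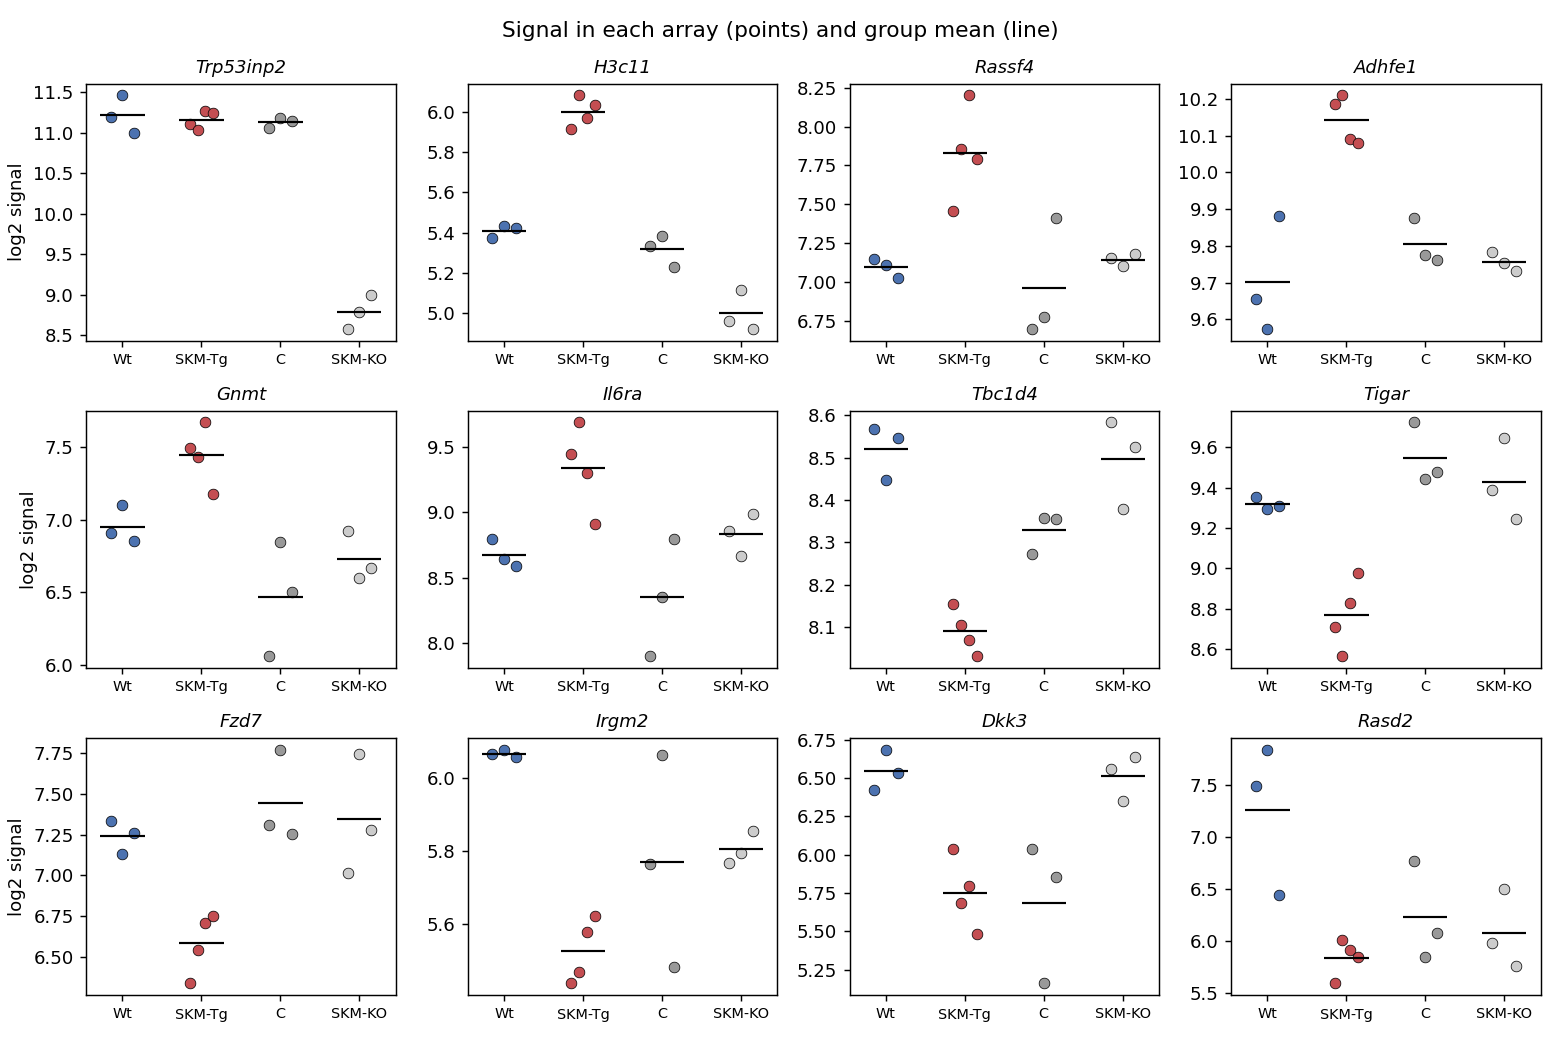
Signal (log2, y axis, a scale of its own in each panel) of 12 genes in every array of the 4 groups (x axis), with points for arrays and a line for the group mean. Trp53inp2 reads alike in Wt, SKM-Tg and C; H3c11, Rassf4, Adhfe1 and Gnmt have SKM-Tg above every other array, Tbc1d4, Tigar and Fzd7 below, and in Dkk3 and Rasd2 the C arrays lie lower than most Wt arrays.

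In other genes the C arrays lay with SKM-Tg or between the groups. Dkk3, a secreted protein related to the Dickkopf inhibitors of Wnt, read 6.42, 6.68 and 6.53 in Wt and 6.04, 5.68, 5.79 and 5.48 in SKM-Tg. The difference was -0.80 (SE 0.15), a 1.74-fold lower signal, but C averaged 5.68 ± 0.46 (SD, n = 3), at the level of SKM-Tg. Rasd2, a small GTPase of the Ras family, had the largest difference of the 38 genes, -1.42 (SE 0.30), or 2.67-fold. It read 7.49, 7.84 and 6.44 in Wt and 5.60, 6.01, 5.92 and 5.85 in SKM-Tg, with C at 6.23. Cbr2, a carbonyl reductase, read 9.04, 9.60 and 8.05 against 7.45, 7.56, 7.97 and 7.67, with C at 7.57. In both, Wt 3 lay nearest to SKM-Tg and the spread was in Wt. Bcl6b, a transcriptional repressor of endothelium and lymphocytes, differed by -0.96 with C at 6.61, below the SKM-Tg mean of 6.70. Cnksr3, a scaffold of kinase signalling, and Apold1, an early response gene of endothelium, had the same order, at -0.57 and -0.89. Cyp4f39, a fatty acid hydroxylase of the cytochrome P450 family, differed by -0.93 with C at 4.85, near the 4.76 of SKM-Tg.

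The other genes of this side kept C nearer to Wt or between the groups. Ppp1r27, a regulatory subunit of protein phosphatase 1 that binds dysferlin, read 9.95, 9.70 and 10.14 in Wt and 8.16, 8.17, 9.32 and 9.66 in SKM-Tg. The SKM-Tg arrays fell into a low and a high pair, and the difference of -1.10 had an SE of 0.38. Abtb2 differed by -0.89, Ccdc117 by -0.58, and Tshz1, a zinc finger factor, by -0.43. For 1700001O22Rik the values were 5.90, 6.35 and 4.71 in Wt and 4.53, 4.41, 4.56 and 4.32 in SKM-Tg, a difference of -1.19 (SE 0.33) with most of the spread in Wt.

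Stress and interferon genes were among the lower ones. Hspa1b, the inducible HSP70 chaperone, read 7.38, 7.48 and 8.10 in Wt and 6.54, 6.34, 7.01 and 7.30 in SKM-Tg, a difference of -0.86 (SE 0.27). Bag3 at -0.53, Dnajb1 at -0.51 and Cryab at -0.18, its partners in chaperone-assisted autophagy and protein folding, were named after their values were seen. Their groups did not overlap either, which makes 4 of 20 tested heat shock genes below (20%, against 2.79% of all genes). In this list 16 lay below 0, the median was -0.10 (-0.04 without Wt 3 and -0.16 without Wt 2), and 0 members passed the adjusted threshold. C averaged 7.35 ± 1.15 (SD, n = 3) for Hspa1b, a range that covers both groups. Irgm2, an interferon-inducible GTPase, read 6.06, 6.08 and 6.06 against 5.44, 5.47, 5.58 and 5.62, a difference of -0.54 (SE 0.11, unadjusted p 0.000918, limma adjusted p 0.938). Igtp of the same GTPase family at -0.44, the transcription factor Irf9 at -0.28 and Ifi27 at -0.19, also named after their values were seen, did not overlap. These were 4 of 19 tested interferon-inducible genes (21.1%), 14 of which lay below 0, with a median of -0.13.

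The groups of genes that follow were read by counts of members and medians, beside 62.2% of all genes below 0, a median of -0.05, and 3.97% with groups apart. They comprise 41 lists with 950 symbols, 823 of them on the array and 761 tested, and 38 lists had at least 5 tested members. In these 38, 0 members passed the adjusted threshold in limma, and 30 medians lay below 0. Single arrays moved most medians: leaving out 1 array moved 35 of the 38 by over 1.5 times or turned their sign, and 15 changed sign. In 14 lists the median was lowest without Wt 3 and highest without Wt 2. The 3 lists that moved less were the unfolded protein response, interferon-inducible genes and markers of tendon and cartilage.

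The machinery of autophagosome formation, on which Trp53inp2 acts, held 35 tested members of 40. Of these, 23 lay below 0 (65.7%), the median was -0.09 (-0.14 without Wt 3 and -0.016 without Wt 2), and in 0 members were the groups apart. Becn1, a subunit of the lipid kinase complex that starts the vesicle, read 9.29, 8.97 and 9.48 in Wt and 9.58, 9.48, 9.42 and 9.56 in SKM-Tg. It overlapped through Wt 3, at 0.26 (SE 0.14). Atg13, a subunit of the initiating ULK complex, differed by -0.37 (SE 0.21), and the kinases Ulk1 and Ulk2 by -0.13 and 0.12. Atg5 and Atg16l1, which lie in the complex that attaches LC3 to lipid, stood at -0.23 and -0.27. Snap29, a SNARE of the fusion with lysosomes, stood at -0.21. Receptors of selective autophagy, 15 genes tested, had a median of 0.0040 with 7 below 0.

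Lysosomal hydrolases and membrane proteins were placed lower as a list. Of 37 tested members 35 lay below 0 (94.6%), with a median of -0.18, which was -0.10 without Wt 2 and -0.12 without SKM-Tg 1. These counts include the transcription factors Tfeb, Tfe3 and Mitf, at -0.28, -0.28 and -0.21. They also include Neurl1a at -0.38, which entered through a gene synonym and is not a lysosomal hydrolase. Of the members 29 lay below 0 without Wt 2, 32 after quantile and 30 after cyclic loess normalization. In 3 members (8.11%) the groups were apart, all with SKM-Tg below. Asah1, acid ceramidase, read 7.52, 7.41 and 7.58 in Wt and 7.28, 7.23, 7.04 and 7.05 in SKM-Tg. It lay below the whole series, at -0.35 (SE 0.12). Cln3, the membrane protein of juvenile neuronal ceroid lipofuscinosis, read 6.58, 7.16 and 6.58 against 5.92, 5.91, 6.47 and 6.36, a difference of -0.61 (SE 0.21). Cathepsin Z, Ctsz, was apart at -0.18 and was named after its values were seen. The proteases Ctsd and Ctsb differed by -0.18 and -0.12, the membrane proteins Lamp1 and Lamp2 by -0.09 and -0.0084, and Ctsl by 0.11. Man2b1, an acid mannosidase, Ppt1, a thioesterase, and Npc1, the cholesterol exporter, stood at -0.53, -0.29 and -0.21.

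Read per array, the list median of the lysosomal genes, each taken relative to its Wt mean, was 0.0013, 0.18 and -0.14 in Wt. It was -0.35, -0.24, -0.02 and -0.16 in SKM-Tg, so Wt 3 lay among the SKM-Tg arrays. Without SKM-Tg 3 the groups were apart. The 3 C arrays stood at -0.21, -0.17 and -0.21, also among them. The vacuolar proton pump, which acidifies the lysosome, had a median of -0.10 over 14 members.

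Genes of the unfolded protein response lay mostly below 0. This response restores folding in the endoplasmic reticulum: 3 sensors, the kinase Eif2ak3, the kinase and nuclease Ern1 and the membrane factor Atf6, detect unfolded protein, and Xbp1 and cleaved Atf6 raise chaperone genes. Of 30 tested members 25 lay below 0 (83.3%), with a median of -0.18 that ran from -0.21 to -0.13 with any array left out. The list median per array was -0.03, 0.01 and 0.06 in Wt and -0.30, -0.13, -0.10 and -0.15 in SKM-Tg. The groups did not overlap, and with all arrays and the settings above this was the only list of the 38 where they did not. It remained apart under median centring, quantile and cyclic loess normalization, without a filter, with a stricter filter and under both other choices of probe set, and with each array left out. It was not the only list apart in all of these. The heat shock list was apart too with the stricter filter and with either other choice of probe set, and the immediate early genes with the stricter filter. With an array left out, 1 to 9 lists were apart, 9 of them without Wt 3. The summed signal of the members, on the linear scale, was 9601 to 10096.5 in Wt and 8225 to 8811 in SKM-Tg. In the other groups C 1 at -0.15 and SKM-KO 1 at -0.13 lay among the SKM-Tg arrays, and the other 4 arrays between 0.03 and 0.11. Since these lists were chosen with earlier results known, the placement is a description and has no test.

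Xbp1 had the largest difference among the sensors and their factors. It read 8.23, 8.91 and 8.11 in Wt and 7.23, 7.52, 8.24 and 7.98 in SKM-Tg. It overlapped through SKM-Tg 3, with a difference of -0.67 (SE 0.28, unadjusted p 0.0417). Ern1 stood at -0.37 (SE 0.20), Eif2ak3 at -0.35 (SE 0.20) and Atf6 at -0.17 (SE 0.13). Among secreted and lumenal proteins, Manf, a stress-induced factor of the lumen, read 7.82, 8.17 and 8.02 against 7.55, 7.59, 7.65 and 7.84. Only SKM-Tg 4 reached into Wt, and the difference was -0.35 (SE 0.13). Creld2 was the 1 member of the list with groups apart (3.33%), at -0.19 (SE 0.11). Members above 0 were 5, with differences up to 0.24.

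Many promoters of chaperone genes carry the ER stress element, CCAAT and CCACG with 9 bases between, to which Atf6 binds with NF-Y. Of the tested members of the list, 26 matched the RefSeq promoter table of GRCm38.p6, in windows of 250 bases before to 50 after the gene's start. The element, searched on both strands, was found in 9 of them (34.6%), against 35 of 27025 promoters in all (0.13%), while its CCACG part was in 32.7% of all promoters. The 5 promoters below are those that hold it first in the order of the list, shown because their genes are the classical chaperones and disulfide isomerases of this response. Each is given over the 250 bases before the start, 5′ to 3′ on the gene's strand, with the element in capitals. They lie at chr2:34771840-34772089 (plus strand, Hspa5), chr10:86705445-86705694 (minus, Hsp90b1), chr8:84846932-84847181 (minus, Calr), chr11:50325674-50325923 (minus, Canx) and chr12:17266339-17266588 (plus, Pdia6).
Hspa5: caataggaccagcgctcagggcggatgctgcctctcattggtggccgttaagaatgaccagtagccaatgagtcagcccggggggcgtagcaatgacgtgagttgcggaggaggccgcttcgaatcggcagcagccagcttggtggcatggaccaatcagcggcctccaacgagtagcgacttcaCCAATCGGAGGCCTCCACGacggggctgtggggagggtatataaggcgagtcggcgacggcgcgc
Hsp90b1: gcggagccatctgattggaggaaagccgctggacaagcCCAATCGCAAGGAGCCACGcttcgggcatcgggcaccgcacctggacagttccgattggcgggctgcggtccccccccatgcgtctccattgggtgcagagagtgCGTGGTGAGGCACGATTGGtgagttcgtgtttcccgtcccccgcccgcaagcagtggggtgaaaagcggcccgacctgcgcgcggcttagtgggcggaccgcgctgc
Calr: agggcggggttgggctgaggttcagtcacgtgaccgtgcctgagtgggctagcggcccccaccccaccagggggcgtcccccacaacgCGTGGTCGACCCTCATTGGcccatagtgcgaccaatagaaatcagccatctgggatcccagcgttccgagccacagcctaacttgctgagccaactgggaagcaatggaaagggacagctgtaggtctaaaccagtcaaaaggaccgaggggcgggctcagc
Canx: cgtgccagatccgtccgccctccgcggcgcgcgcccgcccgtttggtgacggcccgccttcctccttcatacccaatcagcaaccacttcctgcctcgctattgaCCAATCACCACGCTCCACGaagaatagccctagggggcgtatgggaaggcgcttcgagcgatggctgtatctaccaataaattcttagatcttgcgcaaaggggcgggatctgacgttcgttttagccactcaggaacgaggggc
Pdia6: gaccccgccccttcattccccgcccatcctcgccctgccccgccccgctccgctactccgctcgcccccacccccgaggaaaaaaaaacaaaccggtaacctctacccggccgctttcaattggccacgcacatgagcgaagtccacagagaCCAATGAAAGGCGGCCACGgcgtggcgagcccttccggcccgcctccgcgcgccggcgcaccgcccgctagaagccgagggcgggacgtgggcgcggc

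Hsp90b1 holds 2 elements, 1 on each strand, and the other 4 hold 1. Calr carries it on the strand opposite to the gene, and Hspa5, Canx and Pdia6 on the gene's own. Hspa5, the chaperone BiP that keeps the sensors inactive, read 8.23, 7.98 and 8.68 in Wt and 8.02, 8.17, 7.90 and 8.15 in SKM-Tg, a difference of -0.24 (SE 0.18). Calr, a lectin chaperone that stores calcium, differed by -0.40 (SE 0.26). Hsp90b1, the HSP90 of the lumen, stood at -0.13 (SE 0.26), its lectin partner Canx at -0.04 (SE 0.21) and the isomerase Pdia6 at -0.20 (SE 0.14). In none of these 5 were the groups apart. Members with the element had a median of -0.19, with 7 of 9 below 0, and those without it -0.16, with 14 of 17 below 0. The 4 members with no entry in the table had a median of -0.29.

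**Figure D4:**
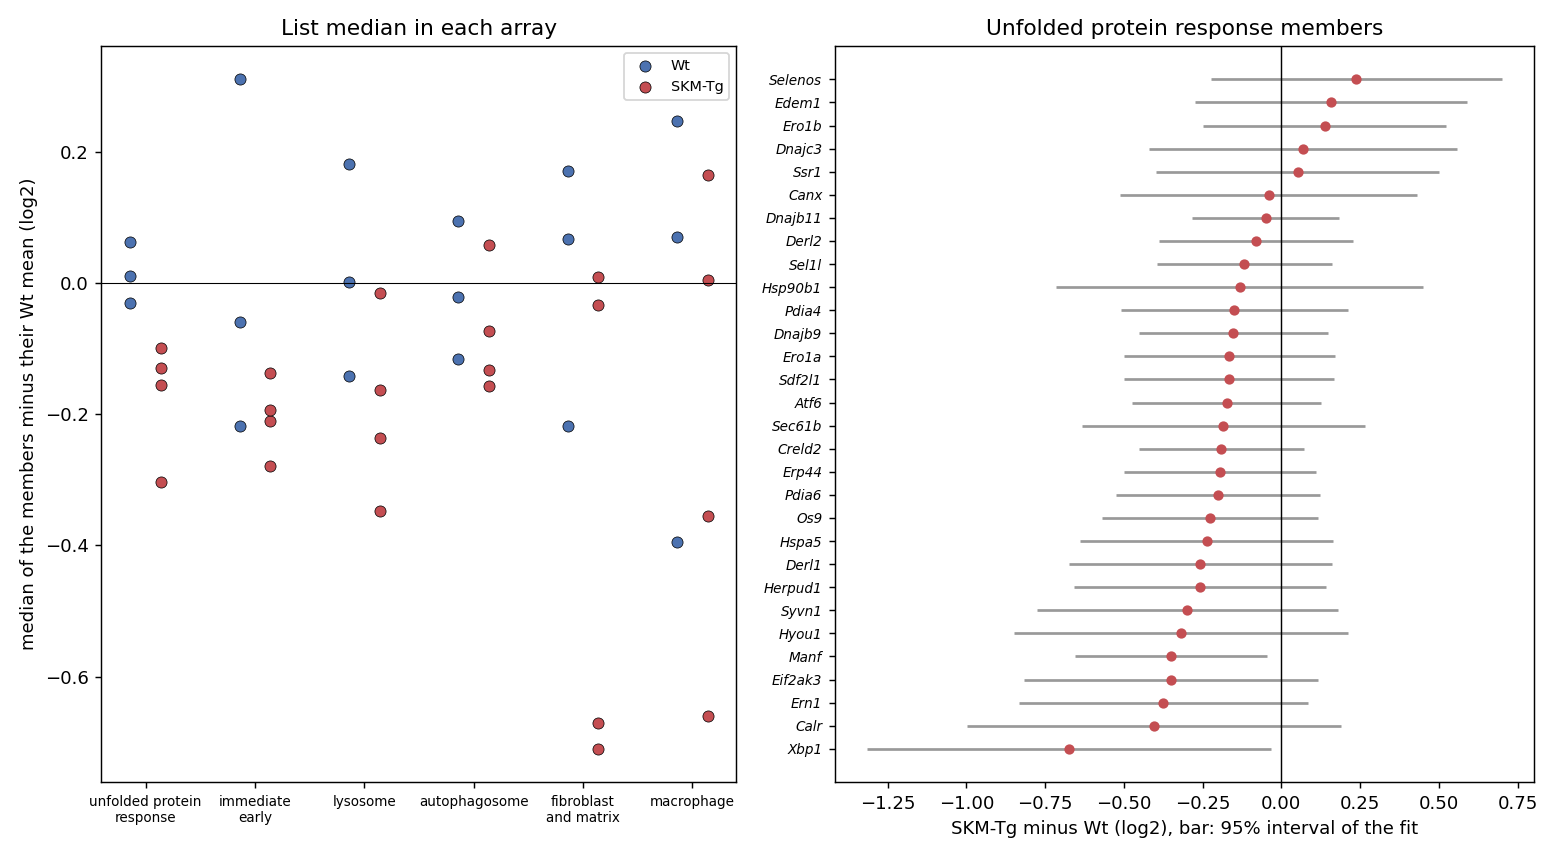
Left, the median over members of the signal minus the Wt mean (log2, y axis) for 6 lists (x axis). Each of the 3 Wt and 4 SKM-Tg arrays has a point. Of these 6, with all arrays and the main settings, the groups are apart for the unfolded protein response alone. The immediate early genes and the fibroblast and matrix markers are also apart without Wt 3, and the lysosomal genes without SKM-Tg 3. Right, SKM-Tg minus Wt (log2, x axis) of the 30 unfolded protein response members with the 95% interval of the fit as a bar; 25 lie below 0, and the intervals of Xbp1 and Manf do not reach it.

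Immediate early genes, which cells switch on within minutes of a stimulus, had 30 tested members. Of these 25 lay below 0 (83.3%), with a median of -0.20, but 16 without Wt 2 and 20 after either normalization. The median was -0.08 without Wt 2 and -0.34 without Wt 3, where the list medians of the groups were apart. In 3 (10%) SKM-Tg was below Wt throughout: Fosl2 at -0.52, Ccn2, a matricellular growth factor, at -0.42, and Srf, the factor that drives many of these genes, at -0.22. Srf was named after its values were seen. Fos read 8.82, 9.07 and 8.25 in Wt and 8.55, 7.37, 7.47 and 8.19 in SKM-Tg, a difference of -0.82 (SE 0.32) in which SKM-Tg 1 overlapped. Klf2 stood at -0.82 (SE 0.29), Nr4a3 at -0.73 (SE 0.30), Nr4a1 at -0.61 (SE 0.36) and Jun at -0.25 (SE 0.18). Egr1 lay on the other side at 0.43 (SE 0.43), with SKM-Tg values from 6.82 to 8.86.

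Nuclear receptors, the class of protein that Trp53inp2 binds in the nucleus, were listed with coactivators and Dio2. This list had 23 tested members and a median of -0.07, with 15 below 0. The median was 0.04 without Wt 2, -0.17 without Wt 3, 0.0015 after quantile and -0.0040 after cyclic loess normalization. Thrb, a thyroid hormone receptor, read 7.20, 7.10 and 6.99 in Wt and 6.97, 6.98, 6.90 and 6.93 in SKM-Tg. It lay just below the whole series, at -0.15 (SE 0.11). Thra, the other thyroid hormone receptor, stood at -0.06. Ppargc1b, a coactivator of mitochondrial genes, read 7.60, 7.73 and 7.87 against 7.05, 6.86, 7.56 and 7.48, and differed by -0.50 (SE 0.19). The estrogen-related receptors, which act with it, stood at -0.29 for Esrra, -0.61 for Esrrb and -0.41 for Esrrg. The retinoid receptors Rxra, Rxrb and Rxrg stood at -0.10, -0.25 and -0.33, and Dio2, which activates thyroid hormone, at -0.21. Thyroid hormone responsive genes of muscle, 12 tested, had a median of -0.02, with 6 on either side of 0. The 57 tested genes of the respiratory chain had a median of -0.04, and in 0 of them were the groups apart.

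Atrophy genes lay on both sides of 0, with 9 of 20 below it and a median of 0.02 that ran from -0.04 without SKM-Tg 2 to 0.08 without SKM-Tg 4. Fbxo32 and Trim63, the ubiquitin ligases atrogin-1 and MuRF1, differed by -0.02 (SE 0.11) and -0.03 (SE 0.12). Their 95% intervals ran from -0.27 to 0.22 and from -0.30 to 0.24. Foxo4, a FoxO transcription factor of the atrophy programme, read 7.65, 7.38 and 7.86 in Wt and 8.08, 7.90, 8.13 and 7.90 in SKM-Tg. Its groups did not overlap, at 0.37 (SE 0.14). Gadd45a, induced in atrophy and after denervation, stood at 0.50 (SE 0.25), Klf15 at 0.23 and the proteasome subunit Psmd11 at -0.25. Fbxo30, Fbxo31 and Fbxo21 stood at -0.13, -0.03 and 0.05. The proteasome, 30 genes tested, had a median of 0.01.

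Genes of the neuromuscular junction and denervation had a median of -0.23 over 17 members, which ran from -0.42 without Wt 3 to -0.02 without Wt 2. Ankrd1, a stretch-responsive repeat protein of the sarcomere, read 8.26, 6.93 and 7.51 in Wt and 6.36, 6.26, 6.13 and 7.15 in SKM-Tg. It overlapped through SKM-Tg 4 and Wt 2, at -1.09 (SE 0.34). The receptor subunits Chrna1, Chrne, Chrnb1 and Chrng stood at -0.34, -0.40, -0.01 and 0.01, the organiser Agrn at -0.33 and its receptor kinase Musk at 0.37 (SE 0.17). Myod1, the myogenic factor, was named after its values were seen: it read 7.47, 7.66 and 7.19 in Wt and 6.71, 6.81, 7.02 and 7.06 in SKM-Tg, a difference of -0.54 (SE 0.15).

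The clock list had the highest median of the 38 with all arrays and the main settings, 0.09, and 5 of 16 members below 0. With the mean of the probe sets of a gene it was 0.17, and the fat cell list lay higher at 0.19. Without Wt 3 the clock median was 0.0046 with 8 members below 0, and the fat cell list again lay higher. Without Wt 2 the clock median was 0.07, below the 0.17 of the Schwann cell list and the 0.18 of the histone list. Further settings also placed other lists higher. Without SKM-Tg 1 the Schwann cell list stood at 0.23 against 0.07 for the clock. Without Wt 1 the liver plasma protein list stood at 0.18 against 0.10. Hlf, an output factor of the clock, read 6.38, 5.83 and 5.89 in Wt and 6.61, 6.72, 6.27 and 6.52 in SKM-Tg, at 0.50 (SE 0.17), with Wt 1 above SKM-Tg 3. Core members lay on both sides of 0, with Arntl at 0.03, Clock at 0.17, Npas2 at -0.16, Per1 at -0.25 and Per2 at 0.10. The outputs Dbp and Nfil3 stood at 0.19 and 0.24, and Bhlhe40 at -0.37.

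**Figure D5:**
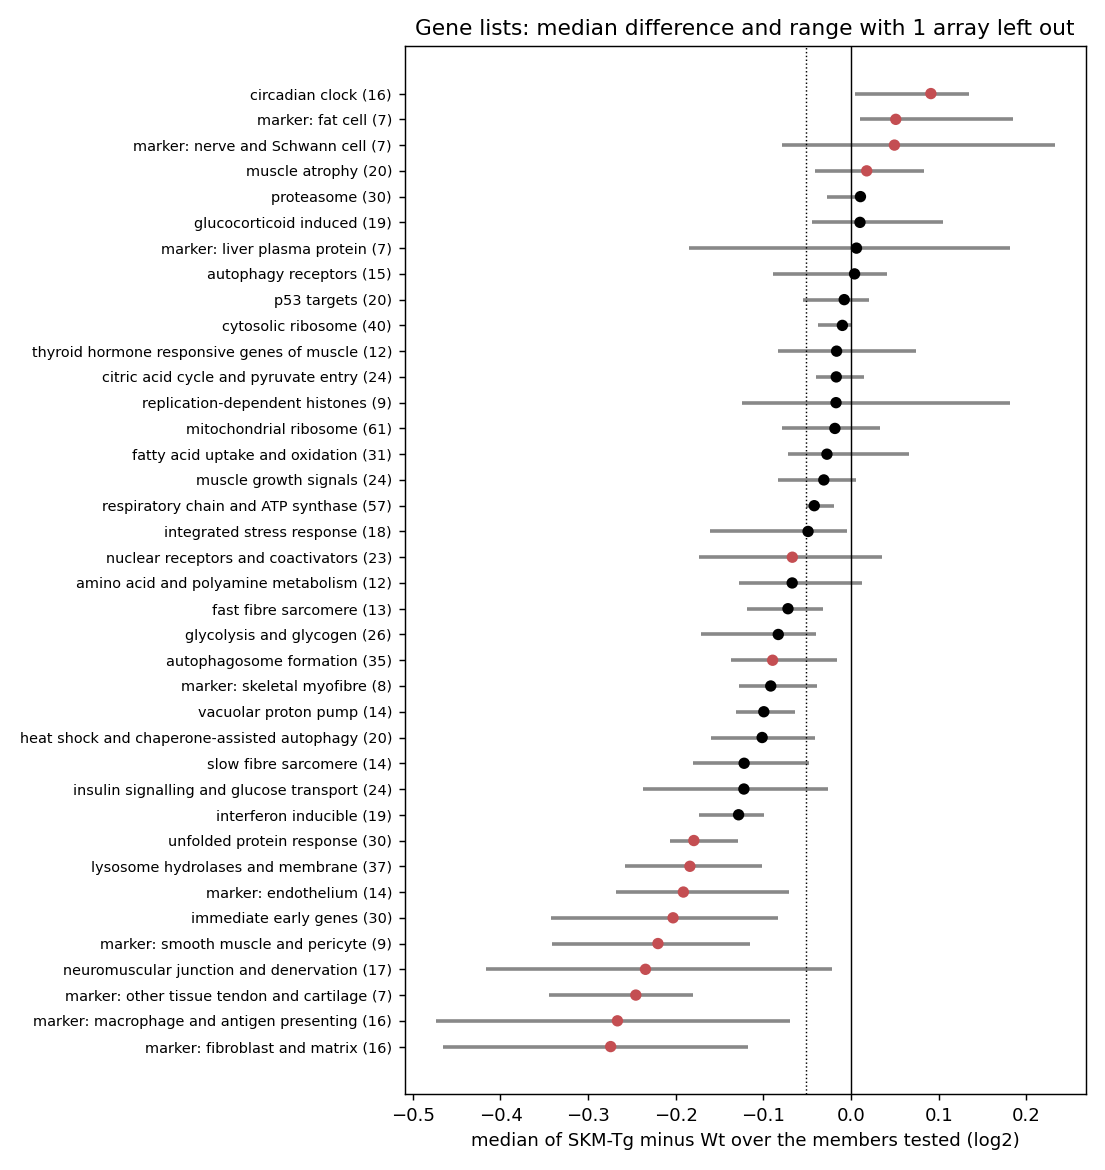
Median SKM-Tg minus Wt difference (log2, x axis) of the tested members of 38 gene lists (y axis, members in brackets), with a bar for its range when each of the 7 arrays is left out; red points are the 15 lists described through members, and the dotted line is the median of all genes, -0.05. The lists farthest below it are markers of fibroblasts and macrophages, whose bars run from -0.47 to -0.12 and to -0.07.

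Markers of fibroblasts, macrophages, tendon and cartilage, smooth muscle and endothelium lay at the low end of the lists, with wide spread. The fat cell and Schwann cell lists lay above 0, each with a median of 0.05. In bulk tissue, fewer cells of a type and less RNA per cell cannot be told apart. Fibroblast and matrix markers had 13 of 16 below 0 and a median of -0.27 (-0.12 without Wt 2 and -0.47 without Wt 3), with summed linear signals of 10585 to 13936.5 in Wt and 9154 to 12376 in SKM-Tg. Their list medians of the groups overlapped with all arrays and were apart without Wt 3. The collagens Col6a1, Col6a2 and Col6a3 stood at -0.45, -0.53 and -0.59, and Loxl1, which cross-links elastin, at -0.57. Col6a3 read 7.33, 7.31 and 7.18 in Wt and 6.02, 6.10, 7.16 and 7.46 in SKM-Tg, so the difference lay in SKM-Tg 1 and SKM-Tg 2. Col1a1 and Col3a1 stood at -0.35 and -0.23, Col5a1 at -0.30, and the proteoglycans Dcn and Lum at -0.20 and 0.0010. Macrophage markers had 15 of 16 below 0 and a median of -0.27 (-0.07 without Wt 2 and -0.47 without Wt 3), with summed signals of 1820 to 2806 in Wt and 1387 to 2532 in SKM-Tg. Cd68, a macrophage lysosomal protein, stood at -0.54 (SE 0.26), Csf1r at -0.29, Cd74 at -0.40 and the scavenger receptor Cd163 at 0.38. Their part in the lower placement of lysosomal genes was not tested.

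Endothelial markers had 11 of 14 below 0, with a median of -0.19, but 8 below 0 and a median of -0.07 without Wt 2. Among them Kdr, a VEGF receptor, stood at -0.48 (SE 0.23). Smooth muscle markers had 7 of 9 below 0, and Acta2, smooth muscle actin, stood at -0.54 (SE 0.20). Tendon and cartilage markers had 7 of 7 below 0, with Comp at -0.47 and Chad at -0.62. Fat cell markers lay above 0 in 5 of 7. Adipoq, the adipocyte hormone adiponectin, read 6.31, 8.75 and 5.12 in Wt and 7.66, 9.84, 8.12 and 8.52 in SKM-Tg, a difference of 1.81 (SE 0.81) that ran from 1.01 to 2.82 with any array left out. Retn and Scd1 stood at 0.86 and 1.27, in the same order of arrays within Wt, and Fabp4 and Lipe at 0.02 and -0.14. Summed fat cell signals were 7525 to 8322 in Wt and 7865 to 11764 in SKM-Tg. Schwann cell markers had a median of 0.05 over 7 members. Of the markers of the muscle fibre itself 7 of 8 lay below 0, with a median of -0.09.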

How the data were processed

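RNA of quadriceps muscle was amplified isothermally from 25 ng per sample, labelled with biotin and hybridised to Affymetrix mouse strip arrays with perfect-match probes, 1 per animal, per the labels' protocols. For 45141 probe sets the authors deposited log2 signals, made with RMA (background correction, normalization and summary of probes), with the version not given in the sources used here. RMA brings the distributions of probe signals together, so a shift of most genes may be removed in part or whole. The deposited values were not fully alike in distribution. Quantile normalization of them moved the share of tested genes below 0 from 62.2% to 53.7%. No strip, scan date or batch is given. The number of arrays per group, not a read depth, limits the precision.

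Control probe sets (104), probe sets with several symbols (551) and those without a symbol here (15588) were left out. Each of the 17097 genes took its brightest probe set by mean over 13 arrays, and the 10411 with a mean of at least 4.90, the median of all non-control probe sets, were tested. The 7 arrays were fitted alone in limma 3.58.1 under R 4.3.3 (lmFit and eBayes, 5 residual and 3.44 prior degrees of freedom), two-sided, with Benjamini-Hochberg adjustment over all genes tested at 0.05. The code was tested on simulated data. SE is the standard error that the fit gives a difference. Replicates are separate animals, numbered in the order of deposit.

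The rule for names took Trp53inp2 and Trp53inp1, the 15 smallest p-values and the 10 largest non-overlapping differences per direction, and for each list described its first 5 tested members and the 5 with the smallest p. Lists described were autophagosome formation, lysosome, nuclear receptors, muscle atrophy and the 12 lists farthest from the median of all genes, 15 in all as some coincide. The members and lists were chosen with earlier results of these data known. Alternatives were other normalizations, filters, probe set choices, variance models, array weights, a fit of all 13 arrays and leaving out each array.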

Additional observations from a re-analysis of the deposited data

Results flagged for a closer look

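Of 147 results looked at for a value far from the rest of the 4 SKM-Tg arrays, by the gap to the nearest value relative to the range of the group, 3 were past the critical value, and chance alone gives about 1 in 20. The share found, 2.04%, lay below that. All 3 lay in SKM-Tg 2. Jun, a subunit of the AP-1 transcription factor, read 9.40 there and 8.92 to 8.97 in the other SKM-Tg arrays. The fat cell markers Scd1, a fatty acid desaturase, and Retn, the hormone resistin, read 11.28 and 8.94 there, against 9.54 to 9.83 and 7.47 to 7.62 in the others.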

How the results depend on the processing

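No paired analysis was possible because the labels carry no replicate numbers and the animals were numbered in the order of deposit. Median centring, averaging over the probe sets of a gene, the brightest probe set over 7 arrays and eBayes with trend and robust kept the counts of genes within 1.5 times. Fitting all 13 arrays gave 156 higher and 561 lower genes at an unadjusted p of 0.05, against 73 and 224. Quantile normalization gave 114 and 142 there, 241 genes with SKM-Tg above and 184 with it below Wt, and 82 above and 43 below all 9 other arrays. Cyclic loess gave 117 higher at that p, 253 above Wt and 73 above all others. With no filter the counts were 155 and 358, with 295 above Wt and 62 above all others. With the stricter filter, which tests fewer genes, they were 30 and 112, with 52 above and 158 below Wt and 17 above and 39 below all others. Array quality weights called 2344 genes at an adjusted p of 0.05 (1236 higher and 2943 lower unadjusted). The weight of Wt 1 was 657.5 there, against 0.1002 for Wt 2 and 0.133 for Wt 3, and the weights did not converge, so these calls rest on 1 Wt array.

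With each array left out, the adjusted calls ran from 0 to 2. Genes at an unadjusted p of 0.05 ran from 44 to 514 higher and from 113 to 1178 lower. Those apart from Wt ran from 176 to 761 above and from 366 to 1674 below, and those apart from all others from 45 to 113 above and from 91 to 218 below. The top values came without Wt 3, or without Wt 2 for the genes apart from all others. The median of the nuclear receptor list ran from -0.173 to 0.035.

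Of 132 genes followed, 20 changed sign in some setting, 8 of them with all arrays kept, and the cause was not tested. Under quantile normalization Lamp2 was 0.059, Thra 0.0029, Fbxo32 0.035, Trim63 0.022 and Canx 0.014. Under cyclic loess Lamp2 was 0.047 and Canx 0.0097, and with the mean of the probe sets Lamp2 was 0.10. Under array weights Ulk2 was -0.065, Lamp2 0.058, Trim63 0.038, Arntl -0.019 and Mbp -0.066. With each array left out, the ranges were -0.039 to 0.087 for Arntl, -0.28 to 0.17 for Canx, -0.12 to 0.41 for Clock, -0.62 to 0.051 for Csf1r, -0.011 to 0.26 for Ctsl, -0.027 to 0.41 for Dbp, -0.12 to 0.19 for Fabp4, -0.41 to 0.024 for Fbxo30, -0.059 to 0.0086 for Fbxo32, -0.41 to 0.14 for Hsp90b1, -0.13 to 0.13 for Lamp2, -0.14 to 0.26 for Mbp, -0.49 to 0.076 for Per1, -0.33 to 0.087 for Rxra, -0.53 to 0.042 for Rxrb, -0.70 to 0.035 for Rxrg, -0.21 to 0.12 for Thra, -0.070 to 0.027 for Trim63, -0.17 to 0.064 for Trp53inp2 and -0.21 to 0.35 for Ulk2.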

Other observations

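Several gene groups of muscle metabolism lay close to the median of all genes. The citric acid cycle and pyruvate entry genes had a median of -0.02 over 24 members, with 12 on either side of 0. The mitochondrial ribosome had -0.02 over 61 members, and fatty acid uptake and oxidation -0.03 over 31, and in 0 members of these lists were the groups apart. Glycolysis and glycogen genes had 22 of 26 below 0, with a median of -0.08 and 1 member apart.

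Contractile genes lay a little below 0. In the fast fibre sarcomere 12 of 13 members did so, with a median of -0.07 and no difference beyond -0.12. In 2 of them (15.4%, against 3.97% of all genes) the groups were apart. The slow fibre sarcomere had 12 of 14 below 0 and 1 apart (7.14%), with a median of -0.12 that was -0.05 without SKM-Tg 2. The list medians of the groups were apart in the fast list without Wt 3 or SKM-Tg 2, and in the slow list without Wt 1. The cytosolic ribosome, 40 genes, had a median of -0.01. Genes of the integrated stress response, 18 tested, had a median of -0.05 with 10 below 0, level with all genes. Targets of p53 had a median of -0.01 over 20 members, with groups apart below in Tigar at -0.55 and Zmat3, an RNA-binding zinc finger protein named after its values were seen, at -0.36.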
